A study of Rattus norvegicus with 7 samples.

Results

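Mitotic cell cycle genes are described here in rat lung under hypoxia with SU-5416, with and without sorafenib. The list holds 50 genes of mitotic entry, spindle assembly, chromosome segregation and cytokinesis. A probe set was taken for a gene where the platform annotation paired it with that gene's symbol alone. By this rule 45 of the 50 genes had a probe set, and they had 62 probe sets among the 31042 non-control probe sets of the array. Nek2, Kif4a, Tpx2, Anln and Ndc80 had no probe set of their own symbol alone.

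The tissue was the saline-perfused right lung of Dahl Salt Sensitive rats weighing 250 to 350 g, and lung RNA was taken at 3.5 weeks. The 3 HSU arrays (1b, 2b and 3b) came from rats kept at an inspired oxygen fraction of about 9.5% and given SU-5416, an inhibitor of the receptors for vascular endothelial growth factor. The 4 HSU_Sor arrays (1 to 4) came from rats of the same strain under the same hypoxia and SU-5416 that also received sorafenib, an inhibitor of RAF kinases and of several receptor tyrosine kinases. Both groups therefore carried hypoxia and SU-5416, and the comparison addresses what sorafenib added to them. Arrays of normoxic rats and of rats under hypoxia alone were not analysed here.

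Entry into mitosis is driven by the kinase CDK1 bound to A-type and B-type cyclins. The Polo-like and Aurora kinases build the spindle, the checkpoint proteins BUB1, MAD2 and TTK hold anaphase back until chromosomes are attached, and the anaphase-promoting complex with CDC20 and UBE2C then marks securin and the cyclins for destruction. Transcripts of these genes accumulate in the G2 phase and mitosis and are scarce in resting cells, so that in adult lung they come from a small dividing fraction of endothelial, stromal, epithelial and immune cells. In RNA from whole lung, fewer dividing cells and less RNA per dividing cell cannot be told apart.

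Many promoters of this class hold a cell cycle homology region, which is bound by the DREAM complex in resting cells, and near it CCAAT boxes, which bind NF-Y. The RefSeq promoter table of the rat build GRCr8 had an entry for 42 of the 50 genes, in windows of 300 bases (250 before and 50 after the start of the gene). Each of 3 motifs was searched on both strands: TTTGAA or TTCGAA for the cell cycle homology region, CCAAT, and an E2F-like motif (TTTCGCG or TTTGGCG or TTTCCCG or TTTGCCG). A homology-region match was found in 28 of the 42 promoters (66.7%), against 21.0% of all promoters of the table. CCAAT was found in 32 (76.2%, against 39.6%), and at least 2 copies in 25 (59.5%, against 12.2%). Both motifs stood together in 23 (54.8%, against 8.57%), and in 2 of the members' promoters a match of one overlapped a match of the other. The E2F-like motif was found in 5 (11.9%, against 7.52%). The first 4 promoters below belong to genes whose RNA varied from array to array, and the last 2 to genes whose signal was nearly flat. Each is 200 bases long, runs 5′ to 3′ on the gene's own strand and ends 50 bases after the start. Capitals mark the homology-region and CCAAT matches on either strand, so that ATTGG and TTCAAA are matches on the opposite strand. The positions are chr20:19265143-19265342 (plus strand) for Cdk1, chr1:199952544-199952743 (minus) for Mki67, chr17:13727470-13727669 (minus) for Cks2, chr1:143659331-143659530 (plus) for Prc1, chr1:186147508-186147707 (plus) for Plk1 and chr5:137255750-137255949 (minus) for Cdc20.
Cdk1: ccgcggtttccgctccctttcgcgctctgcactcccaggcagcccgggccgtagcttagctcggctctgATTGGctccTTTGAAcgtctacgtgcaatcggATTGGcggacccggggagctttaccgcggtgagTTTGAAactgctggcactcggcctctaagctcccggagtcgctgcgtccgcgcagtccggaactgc
Mki67: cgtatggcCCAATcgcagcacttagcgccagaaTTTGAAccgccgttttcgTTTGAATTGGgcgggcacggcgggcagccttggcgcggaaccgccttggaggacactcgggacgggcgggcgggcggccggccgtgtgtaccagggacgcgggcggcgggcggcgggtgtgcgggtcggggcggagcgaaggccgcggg
Cks2: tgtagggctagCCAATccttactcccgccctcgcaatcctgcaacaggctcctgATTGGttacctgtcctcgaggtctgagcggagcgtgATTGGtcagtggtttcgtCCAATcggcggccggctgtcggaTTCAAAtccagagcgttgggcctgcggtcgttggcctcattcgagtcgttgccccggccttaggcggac
Prc1: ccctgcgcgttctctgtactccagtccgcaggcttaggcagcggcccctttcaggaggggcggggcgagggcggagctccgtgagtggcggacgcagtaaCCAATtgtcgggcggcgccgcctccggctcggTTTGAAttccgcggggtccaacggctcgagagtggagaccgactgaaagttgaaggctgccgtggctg
Plk1: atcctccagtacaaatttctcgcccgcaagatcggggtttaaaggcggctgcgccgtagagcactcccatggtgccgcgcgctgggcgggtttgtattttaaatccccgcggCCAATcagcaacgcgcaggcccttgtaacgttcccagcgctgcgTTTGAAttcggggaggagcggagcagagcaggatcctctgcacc
Cdc20: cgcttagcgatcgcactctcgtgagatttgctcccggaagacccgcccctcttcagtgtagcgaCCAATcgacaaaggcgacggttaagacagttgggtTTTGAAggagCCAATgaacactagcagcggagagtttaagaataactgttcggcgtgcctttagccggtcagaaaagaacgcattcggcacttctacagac

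The printed stretches of Cdk1 and Mki67 held 2 homology-region matches each, and that of Cks2 held 4 CCAAT matches. The flat genes Plk1 and Cdc20 held both motifs too. Among members with a probe set and a promoter, both motifs stood together in 14 of 19 genes whose RNA varied at least 1.4-fold across the arrays (73.7%). They did so in 8 of 19 that varied less (42.1%). Of the 22 members with a probe set that varied less, 17 averaged below the median of all probe sets, where little variation can be read. A link between these motifs and the variation of RNA was not tested. A match describes these letters only and is no evidence of a bound site. Among 45 promoters of other mitotic genes the homology-region motif was found in 84.4%. Among 40 promoters of DNA replication and G1/S genes it was found in 10, and the E2F-like motif in 62.5%.

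The deposited values are log2 expression per probe set, already normalized, and no value below compares the level of one gene with that of another, since probe sets differ in affinity. The array medians lay between 3.59 and 3.68, and any 2 arrays correlated at 0.984 to 0.992. The lung label was borne out by its markers: 11 of 12 lung identity genes had a probe set, all 11 were above the filter on low values, and surfactant protein C (Sftpc) lay between 15.39 and 15.54 on every array. HSU 1b and 2b both exceeded every other array by at least 3 log2 units at 6 probe sets, of which the 5 with a single symbol were RT1 genes of the rat major histocompatibility complex. They read 5.68 to 13.78 on those 2 arrays and 2.59 to 3.77 on the other 5. The same 2 arrays were highest in cardiac muscle genes, with a mean deviation of 1.92 and 1.31 against −1.19 to −0.21 elsewhere; myoglobin (Mb) read 6.88 and 5.59 against 2.57 to 2.64. No member's probe set was among them, and comparisons are also given without HSU 1b and 2b. All HSU titles carry the letter b and no HSU_Sor title does, so that whatever the letter marks and the treatment cannot be told apart. The labels name no animal for an array, and p-values measure the spread between these arrays.

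No mitotic gene passed the test between the groups. Probe sets entered the test when they averaged more than 3.64 across the arrays, which is the median of such averages. Of the members' 62 probe sets, 27 passed this filter and 35 did not; 24 of the 45 genes had a probe set above it. The members nearest the filter were Kif20b at 3.71 and Ttk at 3.73 above it, and Kif2c at 3.37 and Kif18a at 3.32 below it. Under limma with Benjamini-Hochberg adjustment over 15521 probe sets, 0 of the 27 had an adjusted p below 0.05, beside 0% of all probe sets tested. Their adjusted p-values from limma ran from 0.874 to 0.998. At an unadjusted limma p below 0.05 the count was again 0 of 27, beside 6.00% of all, and for a fold of at least 1.4 with p below 0.01 it was 0, beside 0.844%. In 0 of the 27 were all HSU_Sor arrays on one side of all HSU arrays, beside 5.26% of all.

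The group means nonetheless lay mostly to one side. Of the 45 genes, 33 had a higher mean in HSU_Sor and 12 a lower one, so that 73.3% were higher, against 34.8% of all genes on the array. Both shares include genes below the filter, 21 of them members, where the sign of a difference says little. Above the filter 22 of 24 members were higher, beside 4325 of 9299 genes. The median difference, HSU_Sor minus HSU, was 0.11 on the log2 scale over the 45 genes and −0.01 over all genes. A difference of at least 1.4-fold towards HSU_Sor was seen in 8 of the 27 probe sets tested (29.6%), beside 1.84% of all, and towards HSU in 0, beside 2.62%. These 8 measured Cdk1, Mki67, Kif20b, Ccna2, Bub1, Ccnb2, Kif23 and, at its dimmer probe set, Top2a. Kif20b and Bub1 averaged 3.24 and 3.38 in HSU, below the filter, and 4.07 and 4.06 in HSU_Sor. Both passed the filter only through HSU_Sor, so neither adds support to this count or to the 22 of 24. The count of 8 also rested on single arrays: without HSU 3b it was 2 (7.41%, beside 2.37% of all), Cdk1 at 0.59 and Kif20b at 0.60. It was 4 without HSU_Sor 1, 3 without HSU_Sor 2, 16 without HSU_Sor 3 and 13 without either HSU 1b or HSU_Sor 4. For these omissions the share of all probe sets was not counted. The counts therefore show only that the result depended on single arrays, and no excess of members is read from them.

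The members spread widely between arrays of the same group. The SD within groups had a median of 0.41 over the 24 genes above the filter and of 0.14 over the 9299 genes tested, and 16 of the 24 exceeded 90% of those genes. Among neighbouring lists its median was 0.25 for DNA replication and G1/S genes and 0.16 for other mitotic genes, and among marker lists it was 0.51 for macrophage and 1.18 for cardiac muscle genes. It was 0.83 for Cdk1, 1.27 for Mki67 and 1.64 for Cdkn3. The highest and lowest of the 7 arrays differed by at least 1.4-fold in 22 of the 27 probe sets tested (81.5%), beside 45.3% of all. By gene this held for 23 of the 45 (51.1%), against 27.9% of all genes. The share was 22 of 43 (51.2%) among replication and G1/S genes, 15 of 45 (33.3%) among other mitotic genes, 8 of 10 among smooth muscle genes and 7 of 9 among macrophage genes, so that a wide range was not particular to the members. The 1.4-fold limit is the minimum fold named in the study's design text, and its use to divide the members was chosen after their values were seen. Nuf2 at 1.43-fold and Birc5 at 1.49-fold lay just inside it, and Kif22 at 1.37-fold and Spc24 at 1.25-fold just outside.

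**Figure D1:**
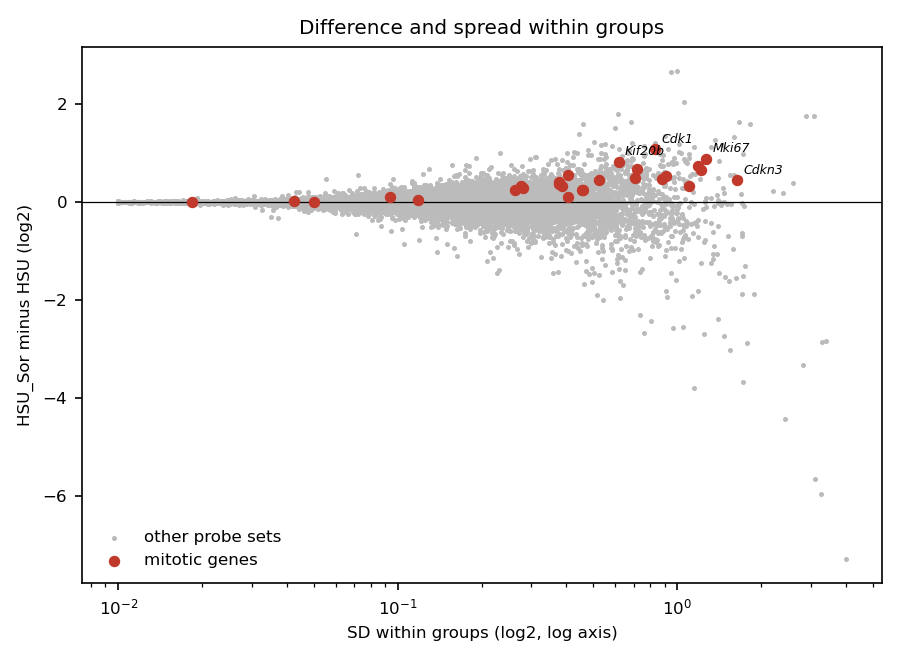
The difference between group means (vertical axis, HSU_Sor minus HSU, log2) against the SD within groups (horizontal axis, log2 units on a log scale, with SDs under 0.01 drawn at 0.01) for the 15521 probe sets tested, with the members' 27 probe sets as coloured points. The members lie mostly above 0 and towards the right, with Cdk1 at a difference of 1.07 and an SD of 0.83 and Cdkn3 at an SD of 1.64.

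The CDK1 group showed the widest range. Cdk1, the kinase that triggers mitosis, read 8.60, 8.27 and 6.98 on the HSU arrays 1b, 2b and 3b, and 9.51, 9.82, 8.0 and 8.76 on HSU_Sor 1 to 4. HSU_Sor 1 and 2 were the highest arrays and HSU 3b the lowest, and the groups overlapped because HSU_Sor 3 lay below HSU 1b and 2b. The means were 7.95 ± 0.85 (SD, n = 3) and 9.02 ± 0.82 (SD, n = 4), a difference of 1.07 ± 0.56 (SE), or 2.10-fold (limma, adjusted p = 0.874). The difference was 0.59 without HSU 3b and 1.41 without HSU_Sor 3, and 2.04 when HSU 3b alone stood for its group.

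The mitotic cyclins followed the same arrays. Ccna2, the cyclin of S phase and mitotic entry, read 7.12, 6.07 and 4.85 in HSU and 7.54, 7.75, 5.07 and 6.58 in HSU_Sor. Ccnb2, a B-type cyclin, read 7.39, 6.65 and 5.30 in HSU and 7.98, 8.15, 5.30 and 6.92 in HSU_Sor. In both genes HSU 3b and HSU_Sor 3 were the 2 lowest arrays, whichever their group, and the differences of 0.73 ± 0.80 and 0.64 ± 0.82 (SE) were smaller than their errors (limma, adjusted p = 0.90 and 0.907). Without HSU 3b the Ccna2 difference was 0.14, and without HSU 1b and 2b it was 1.89. Ccnb1, the other B-type cyclin, lay near the bottom of the scale at 2.51 to 2.79, with its highest value on HSU_Sor 2.

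Among the partners of CDK1, Cks2, the small subunit that helps it find its substrates, read 8.87, 8.54 and 7.62 in HSU and 9.40, 9.59, 7.36 and 8.92 in HSU_Sor, a difference of 0.48 ± 0.60 (SE). Cdkn3, a phosphatase that acts on CDKs, read 5.92, 5.77 and 4.62 in HSU and 7.45, 7.28, 3.05 and 5.76 in HSU_Sor. Its 21.0-fold range was the widest of any member and lay wholly within the HSU_Sor group, between arrays 1 and 3. The Cdkn3 difference of 0.45 ± 1.10 (SE) changed sign without HSU_Sor 1, to −0.07. Over the 6 genes of CDK1, its cyclins and their regulators the median difference was 0.56, and none passed.

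**Figure D2:**
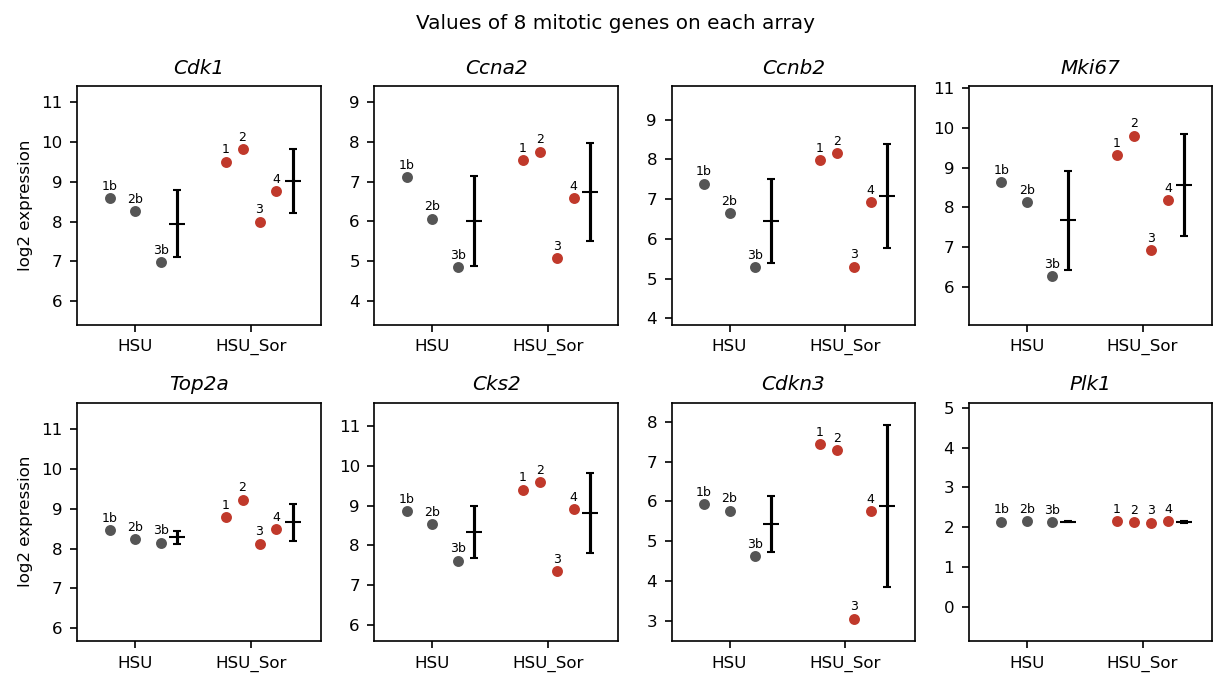
Log2 expression of 8 members on each array (vertical axis), with HSU arrays 1b, 2b and 3b and HSU_Sor arrays 1 to 4 as points, the group mean as a short line and its SD as an error bar. Each panel spans the same number of log2 units, so steps can be compared but levels between genes cannot. Cdk1, Ccna2, Ccnb2, Mki67, Cks2 and Cdkn3 show HSU 3b low in its group and HSU_Sor 3 low in its own, whereas Plk1 lies at 2.11 to 2.16 throughout.

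The 2 chromatin members are common labels of dividing cells. Mki67, the Ki-67 protein that coats mitotic chromosomes, read 8.63, 8.13 and 6.26 in HSU and 9.32, 9.81, 6.92 and 8.19 in HSU_Sor. The 11.6-fold range between HSU_Sor 2 and HSU 3b exceeded the difference between the groups, 0.88 ± 0.85 (SE; limma, adjusted p = 0.889), which was 0.18 without HSU 3b. Top2a, the topoisomerase that untangles sister chromatids, read 8.47, 8.24 and 8.15 in HSU and 8.79, 9.23, 8.13 and 8.49 in HSU_Sor at its brighter probe set. The dimmer Top2a probe set read 7.26, 7.26 and 6.18 in HSU and 7.80, 8.47, 5.97 and 7.46 in HSU_Sor. Both placed HSU_Sor 1 and 2 highest and HSU 3b and HSU_Sor 3 lowest, with differences of 0.37 ± 0.26 and 0.53 ± 0.61 (SE).

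The mitotic kinases and the checkpoint genes fell into those that varied and those that were flat. Bub1, the checkpoint kinase at kinetochores, read 4.08, 3.37 and 2.71 in HSU and 4.86, 4.48, 3.25 and 3.63 in HSU_Sor, a difference of 0.67 ± 0.48 (SE). Aurkb, the kinase of the chromosomal passenger complex, read 5.14, 5.16 and 5.01 in HSU and 5.99, 5.86, 5.05 and 5.16 in HSU_Sor. For Aurkb HSU_Sor 1 and 2 stood above 5 arrays that hardly differed, a shape that Melk, a kinase of dividing cells, shared at 3.73 and 3.71 on those 2 arrays and 2.39 to 2.52 on the rest. Aurka, which acts at the spindle poles, read 4.53 to 4.57 on all 7 arrays, and its within-group SD of 0.02 exceeded that of only 3.3% of the genes tested. Mad2l1, the checkpoint inhibitor of CDC20, read 7.09, 7.11 and 6.86 in HSU and 7.12, 7.09, 6.90 and 7.10 in HSU_Sor. Its range was small, but HSU 3b and HSU_Sor 3 were again the lowest arrays.

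Among the genes of anaphase and its timing, Ube2c, the conjugating enzyme of the anaphase-promoting complex, read 5.88, 5.86 and 4.95 in HSU and 6.05, 6.68, 5.42 and 5.86 in HSU_Sor, a difference of 0.44 ± 0.36 (SE). Pttg1, the securin, read 4.13 and 3.37 on HSU_Sor 1 and 2 and 2.70 to 2.78 on the other 5 arrays, and lay below the filter. Cdc20, the activator of the complex, had 5 probe sets, and none of their values exceeded 2.51. A Cdc20 probe set other than the one used read 2.41 on HSU_Sor 2 and 2.07 to 2.11 elsewhere. Plk1, the Polo-like kinase, lay between 2.11 and 2.16, and Foxm1, a transcription factor that drives G2 and mitotic genes, between 2.42 and 2.5. The lower quartile of each array was 2.37 to 2.42, so that for these genes a flat reading gives no measurement of their RNA above the bottom of the scale.

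The kinesins, motor proteins of the spindle and midzone, included the members with the smallest p-values. Kif23, a motor of the central spindle, read 9.64, 9.56 and 8.58 in HSU and 9.77, 10.11, 9.64 and 9.74 in HSU_Sor. None of the HSU_Sor arrays was below HSU 1b, and HSU_Sor 3 equalled it. HSU 3b stood apart from the other 6 arrays, and the difference of 0.55 ± 0.28 (SE; limma, adjusted p = 0.874) was 0.21 without it. Its dimmer probe set read 3.90, 3.85 and 3.56 in HSU and 3.64, 4.44, 3.43 and 4.57 in HSU_Sor and did not repeat that order. Kif20b, a kinesin of cytokinesis, read 3.46, 3.48 and 2.79 in HSU and 4.64, 4.75, 3.40 and 3.47 in HSU_Sor, a difference of 0.82 ± 0.42 (SE). The other kinesins Kif11, Kif20a, Kif2c, Kif18a and Kif22 varied by less than 1.4-fold at the probe set used. The dimmer Kif11 probe set, also below the filter, had a 1.41-fold range. It read 2.31 and 2.23 on HSU_Sor 1 and 2 and 1.81 to 1.93 on the rest.

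Kinetochore genes had a median difference of 0.07 and spindle and midzone genes one of 0.17, and none passed. Cenpf, a kinetochore protein of late G2, read 6.13, 6.14 and 6.01 in HSU and 6.80, 6.64, 6.10 and 6.14 in HSU_Sor. The same step on HSU_Sor 1 and 2 was seen in Ect2, the exchange factor that starts the cleavage furrow, at 6.36 and 6.16 against 5.35 to 5.79 on the other 5 arrays. Prc1, which bundles midzone microtubules, read 6.86, 6.37 and 5.76 in HSU and 7.33, 7.62, 5.92 and 6.37 in HSU_Sor, a difference of 0.48 ± 0.48 (SE). Nusap1, a microtubule-binding spindle protein, differed by 0.29 ± 0.19 (SE) and Cdca3, a mitotic entry factor, by 0.25 ± 0.18 (SE), in the same order of arrays at the low end. Cenpk, a constitutive centromere protein, read 4.47, 4.00 and 3.74 in HSU and 4.63, 4.39, 3.64 and 4.05 in HSU_Sor, and was one of the 3 varying members in which HSU_Sor 1 and 2 were not both on top. Pbk, a mitotic kinase, stood at 5.40 on HSU_Sor 1 and between 4.03 and 4.42 elsewhere. Birc5, the survivin subunit of the passenger complex, lay below the filter at 2.51 to 3.09, with its one higher value on HSU_Sor 2. For Racgap1, the partner of Kif23 in the central spindle, the 2 probe sets disagreed. The brighter read 4.20 to 4.31 throughout, and the dimmer 5.06, 3.66 and 3.38 in HSU and 5.30, 5.45, 3.01 and 3.65 in HSU_Sor.

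The 23 varying genes shared 1 order of arrays. HSU_Sor 1 was the highest array in 11 of them and HSU_Sor 2 in the other 12, and these were the 2 highest arrays in 20. HSU 3b was the lowest array in 14 and HSU_Sor 3 in 9, and these were the 2 lowest in 22. The 3783 genes above the filter that varied as much hold only 19 of the 23. Among these 3783 genes, HSU_Sor 1 was highest in 8.01%, HSU_Sor 2 in 14.3% and HSU_Sor 3 in 25.5%. HSU 3b was lowest in 8.67% of them and HSU_Sor 3 in 9.09%. HSU_Sor 3 was below the HSU mean in 19 of the 23, and HSU 1b was above HSU_Sor 3 in 22. All 23 had a higher mean in HSU_Sor, by 0.09 to 1.07 with a median of 0.45, and none separated the groups. Of the 23, Melk, Pttg1, Nuf2 and Birc5 lay below the filter and reached 1.4-fold only through HSU_Sor 1 or 2. Aurkb, Cenpf, Pbk, Ect2, Top2a and Nusap1 lay above the filter, but they too reached 1.4-fold only through HSU_Sor 1 or 2. The higher mean and the highest array of all these genes thus followed from the choice of varying genes. None of them adds support to the counts. The mean deviation of these 23 genes from their own 7-array means was 0.09, −0.15 and −0.74 in HSU and 0.72, 0.73, −0.61 and −0.03 in HSU_Sor. The widest gap between arrays of the same treatment, from HSU_Sor 2 to HSU_Sor 3, was larger than the group difference of 0.47.

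**Figure D3:**
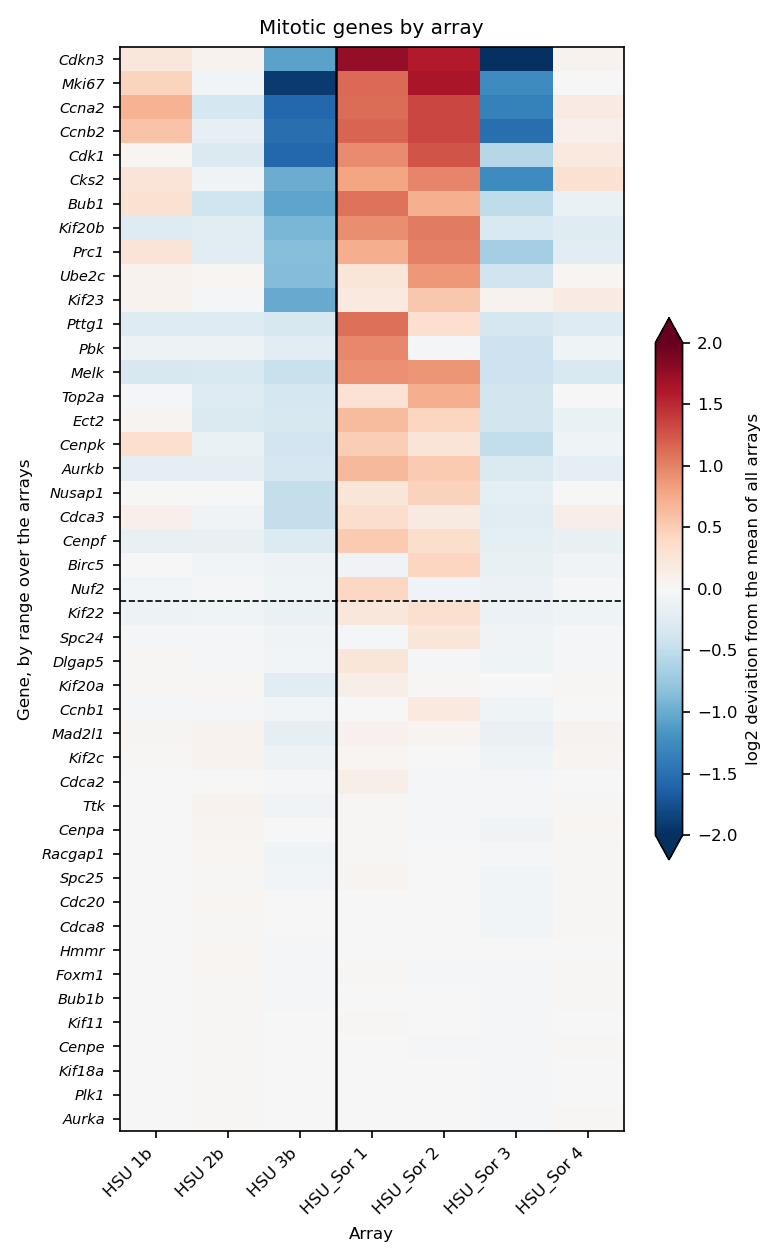
Deviation of each of the 45 genes (rows) from its own mean over the 7 arrays (columns), in log2 units by colour, which saturates at 2 units either way; the dashed line divides the 23 genes that varied at least 1.4-fold from the 22 that varied less. HSU_Sor 1 and 2 are high and HSU 3b and HSU_Sor 3 low down the upper block, which cuts across the 2 groups.

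In pairs, too, the members moved together. The median Pearson r across the 7 arrays was 0.60 over the 990 pairs of the 45 genes and 0.80 over the 276 pairs of the 24 genes above the filter. It was 0.02 over pairs of the 9299 genes above the filter, the like set for the 0.80. No median was taken over all genes without the filter, so the 0.60 has no like value beside it. With group means taken off, the members' medians were 0.63 and 0.79, so that the co-variation was as large within the groups as across them. Against the mean of the other varying members, r was 0.98 for Prc1, 0.97 for Mki67 and Ccnb2 and 0.95 for Cdk1, down to 0.59 for Nuf2. These correlations describe 7 arrays that all pairs share, and 1 high or low array enters each of them. Leaving out single arrays moved the median of the 45 genes between 0.54 and 0.73.

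The 22 genes that varied less were Ccnb1, Cdc20, Plk1, Aurka, Bub1b, Mad2l1, Ttk, Kif11, Kif20a, Kif2c, Kif18a, Kif22, Cenpe, Cenpa, Cdca2, Cdca8, Racgap1, Spc24, Spc25, Dlgap5, Hmmr and Foxm1. Of these, 17 lay below the filter, with values of 1.82 to 3.44, and 16 had a range under 0.2. Cenpe, a kinetochore motor, lay between 2.30 and 2.36 and Kif18a, a motor that shortens microtubules, between 3.29 and 3.35. The differences of the 22 genes ran from −0.04 to 0.19 with a median of 0.00. In 14 of the 22 the highest array was HSU 2b, whose array median was the highest of the 7, and all 22 were lowest on HSU 3b or HSU_Sor 3, the arrays with the 2 lowest medians. The other 6 had wider ranges, up to 0.45 for Kif22.

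Over all 45 genes the mean deviation was 0.05, −0.07 and −0.41 in HSU and 0.39, 0.39, −0.34 and −0.01 in HSU_Sor. The group means were −0.14 ± 0.24 (SD, n = 3) and 0.11 ± 0.35 (SD, n = 4), and their difference of 0.25 was smaller than the SD in HSU_Sor. It was 0.12 without HSU 3b and 0.40 without HSU_Sor 3. Without HSU 1b and 2b, where HSU 3b alone is assumed to vary like the HSU_Sor arrays, it was 0.52. In that comparison 0 of the 27 probe sets had an adjusted limma p below 0.05, beside 0.0644% of all, and 2 (7.41%) were higher at an unadjusted p below 0.05, beside 2.26% of all. They were Kif23, at 1.24 ± 0.20 (SE; limma, adjusted p = 0.265), and Kif20a, at 0.25 ± 0.07 (SE).

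In all, 3 lists of neighbouring cell cycle genes were set beside the members. Of 55 other mitotic genes, 17 had a probe set above the filter, 12 of them higher and 5 lower in HSU_Sor, with a median difference of 0.09 and 0 past limma's adjusted or unadjusted 0.05. The smallest p among them belonged to Smc2, a condensin subunit, at 0.21 ± 0.11 (SE). Of 50 DNA replication and G1/S genes, 24 were tested, 16 higher and 8 lower, with a median of 0.11 and again 0 past either limma threshold. Rfc4, a subunit of the clamp loader, had the smallest p there, at 0.45 ± 0.23 (SE; limma, adjusted p = 0.874).

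Both lists had their highest mean deviation on HSU_Sor 1 and 2. The mean deviation of the replication genes was −0.01, −0.09 and −0.08 in HSU and 0.31, 0.26, −0.29 and −0.11 in HSU_Sor. That of the other mitotic genes was 0.00, −0.03 and −0.05 in HSU and 0.24, 0.13, −0.18 and −0.12 in HSU_Sor. Across the 7 arrays the median r between the varying members and the replication genes was 0.58, and between the varying members and the other mitotic genes 0.44. Over the 24 members that passed the same filter as these lists, the mean deviation was 0.12, −0.11 and −0.70 in HSU and 0.60, 0.64, −0.55 and 0.00 in HSU_Sor. HSU 3b was thus further below the mean in the members than in either list, a difference that was not tested.

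The list of G1 cyclins and cell cycle inhibitors took another course. Of its 21 genes tested, 14 were higher and 7 lower, none passed limma's adjusted threshold, and at an unadjusted limma p below 0.05 there were 4 higher and 1 lower. Ccnd2, a D-type cyclin that carries mitogen signals into G1, was lower in HSU_Sor by 0.48 ± 0.10 (SE; limma, adjusted p = 0.570). Cdkn1c, the CDK inhibitor p57, was higher by 0.28 ± 0.06 (SE; limma, adjusted p = 0.570). Cdkn1b, the CDK inhibitor p27, was higher by 0.19 ± 0.07 (SE; limma, adjusted p = 0.812). The list's mean deviation stayed between −0.07 and 0.08 on every array, and its median r with the varying members was −0.06.

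**Figure D4:**
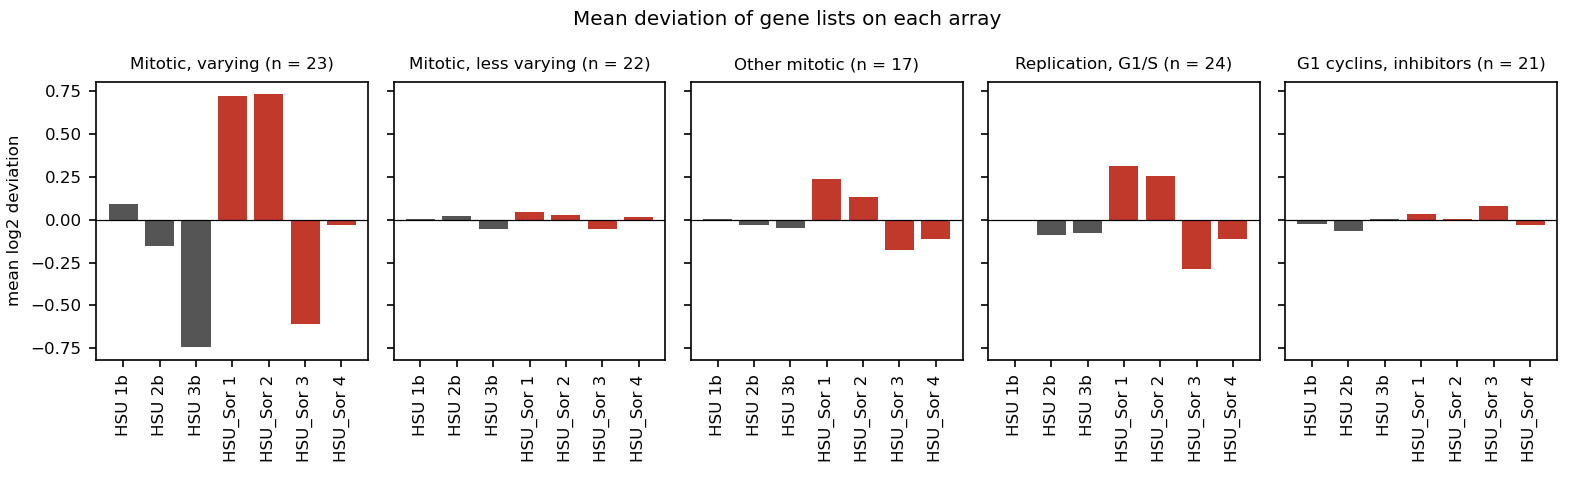
Mean deviation from the 7-array mean (vertical axis, log2) on each array for 5 lists of genes, drawn as bars from 0 and coloured by group. The varying members swing from −0.74 on HSU 3b to 0.73 on HSU_Sor 2, the replication genes from −0.29 to 0.31, and the G1 list stays near 0.

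Of 9275 other genes above the filter, those whose 7 values were most like the members' mean deviation were Slco1a4 (r = 0.96 over 7 arrays), Rtn1, Zfp639, Pclaf, Mpdu1, Sowahb, Abcb1a, Mcm6, Sdr39u1 and Rnd2 (r = 0.88). Of these 10 genes, 3 had ranges above 1 log2 unit. Pclaf, which binds the replication clamp PCNA, read 9.45, 8.77 and 8.08 in HSU and 9.87, 10.10, 7.30 and 9.54 in HSU_Sor. Mcm6, a subunit of the replicative helicase, read 6.93, 6.95 and 6.92 in HSU and 7.61, 7.62, 6.52 and 6.89 in HSU_Sor. Abcb1a, a drug efflux pump, read 4.03, 3.47 and 3.42 in HSU and 6.53, 6.29, 3.38 and 3.44 in HSU_Sor, so that HSU_Sor 1 and 2 stood alone. All 24 replication genes tested had an r above 0, with a median of 0.65, beside a median of −0.14 over all genes ranked.

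Markers of cell types that could carry mitotic RNA were read on the same arrays. None of 14 marker lists had HSU_Sor 1 and 2 as its 2 highest arrays or HSU 3b and HSU_Sor 3 as its 2 lowest. Some of these lists share genes, such as Sftpc, Scgb1a1 and Pecam1, so they are not independent. The B and plasma cell list and the platelet list rested on 2 tested genes each. Of 13 erythroid genes 10 had a probe set and 3 passed the filter; their mean deviation was 0.53, 0.90 and 0.99 in HSU and 1.5, 0.48, −2.10 and −2.31 in HSU_Sor, with summed log2 levels of 51.58 to 52.23 and 42.43 to 53.89 over the 10. Alas2, the haem synthesis enzyme of red cell precursors, read 8.41, 9.52 and 9.76 in HSU and 11.45, 8.58, 2.76 and 2.79 in HSU_Sor, whereas Klf1, the factor that defines these precursors, was near the bottom of the scale on all arrays. Of 14 T and NK cell genes 13 had a probe set, with summed levels of 68.58 to 80.00 in HSU and 69.71 to 74.47 in HSU_Sor. Their highest array was HSU 3b, at a mean deviation of 0.85 over the 9 tested, with Cd3d near the bottom of the scale throughout. Of 13 neutrophil and precursor genes 8 had a probe set, with summed levels of 44.92 to 46.87 and 45.23 to 50.13, and HSU_Sor 3 was highest at 0.99 over the 3 tested.

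Other lists had a lower mean in HSU_Sor than in HSU, opposite to the members. No gene of any marker list passed limma's adjusted threshold. All 10 smooth muscle genes were lower in HSU_Sor, 4 of them at an unadjusted limma p below 0.05, with summed levels of 115.07 to 116.78 in HSU and 107.79 to 112.63 in HSU_Sor. Desmin (Des), a smooth muscle filament protein, read 11.47, 11.56 and 11.56 in HSU and 10.57, 10.16, 10.62 and 10.39 in HSU_Sor. All 8 fibroblast genes were lower, 6 of them at that level, with sums of 100.76 to 101.84 and 97.81 to 98.62. The mean deviation in HSU_Sor minus that in HSU was −0.56 for smooth muscle, −0.38 for fibroblast, −0.81 for macrophage, −1.12 for mast cell, −1.41 for cardiac muscle and −1.15 for airway epithelial genes. Of the macrophage genes tested, 4 were lower and 3 higher, with C1qa, C1qb and C1qc at −1.70, −2.69 and −1.68 and Cd68 at 0.39. Of the airway genes tested, 3 were lower and 2 higher, with Bpifa1 at −3.68. The cardiac muscle mean was high on HSU 1b and 2b only (1.92 and 1.31). On HSU 3b it was −0.81, below HSU_Sor 1, 2 and 3 and above HSU_Sor 4. The part of any of these cell types in the members' spread and in their difference between groups was not tested.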

How the data were processed

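The authors deposited log2 expression per probe set for 7 arrays, already normalized. The submitters' processing notes name RMA as well as GCRMA without saying which gave this table; GCRMA pulls dim probe sets towards a common floor, which hides differences there. Of the probe sets, 57 controls were left out; 20826 of the rest had 1 gene symbol, 436 several and 9780 none, and 20758 matched the GRCr8 gene table by identifier with 0 symbols changed. HSU_Sor was compared with HSU by limma 3.58.1 (R 4.3.3; lmFit, eBayes, two-sided, Benjamini-Hochberg) on probe sets with a 7-array mean above 3.64. Members below it come from the same fit without the filter. A gene is represented by its probe set with the highest mean. No counts exist, so the number of arrays (3 and 4) limits the precision. The fit was tested on simulated data. Members and lists were chosen with earlier results of these data known. Every member could be named. Described in depth were 11 members chosen by function, the 8 with the smallest p and the 4 with the widest and the 4 with the narrowest spread, with up to 4 of each other list by smallest p and the 10 most alike and 5 least alike genes. Alternatives covered the filter, quantile normalization, median centring, trended or weighted fits, a replicate block and leaving arrays out. Same-numbered arrays of the 2 groups correlated in their deviations at r = −0.06, 0.18 and 0.14, and other-numbered ones at −0.17 to 0.24. The labels name no pairs, and so few arrays cannot settle whether the numbers pair them.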

Additional observations from a re-analysis of the deposited data

Results flagged for a closer look

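In 5 of 46 groups of 4 HSU_Sor arrays examined, the gap between an extreme array and its nearest neighbour took more of the group's range than Dixon's 95% critical value allows. Chance gives this in about 1 in 20 groups. Mad2l1 was low on HSU_Sor 3 at 6.90 (gap over range 0.861). Birc5 was high on HSU_Sor 2 at 3.09 (0.854) and Nuf2 on HSU_Sor 1 at 2.83 (0.873). Spc24 was high on HSU_Sor 2 at 2.57 (0.844) and Dlgap5 on HSU_Sor 1 at 2.18 (0.846). Of these 5 genes only Mad2l1 was above the filter on low values, and its extreme array was one of the 2 lowest arrays of most members. The extreme array of each of the other 4 was HSU_Sor 1 or 2, as in the varying members.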

How the results depend on the processing

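No member probe set had an adjusted p below 0.05 under any alternative run. The count past 1.4-fold and p below 0.01 was 0 except with the replicate block, where it was 3 (Cdk1, Kif20b and Bub1; adjusted p = 0.616 for each by limma), and without HSU 1b and 2b, where it was 1 (Kif23). Whether the numbers pair the arrays is not known, so the replicate block is given as an alternative only. The median difference of 0.11 was 0.06 to 0.16 with single arrays left out, 0.39 over members above the filter, 0.45 over the varying members and 0.21 without HSU 1b and 2b. The difference in mean deviation, 0.25, was 0.12 to 0.40 with single arrays left out and 0.52 without HSU 1b and 2b. The median r of 0.60 was 0.80 above the filter, 0.83 over the varying members and 0.54 to 0.73 with single arrays left out, highest without HSU_Sor 2. The count of member probe sets at least 1.4-fold higher, 8, was 2 to 16 with single arrays left out and 17 without HSU 1b and 2b (an alternative chosen after seeing the data, as were all others without those 2 arrays and those over the varying members). The difference of a named gene kept its sign in 251 of 273 comparisons and turned in 22. Of these, 15 concerned 6 genes below the filter (Ccnb1, Plk1, Birc5, Foxm1, Cenpe and Kif18a), with turned values from −0.046 to 0.012. Cdkn3 (0.45) turned to −0.07 without HSU_Sor 1 and −0.015 without HSU_Sor 2. Aurka (−0.01) turned to 0.004 after quantile normalization, 0.01 after median centring and 0.011 without HSU 1b and 2b, and ran from −0.014 to 0.004 with single arrays left out, turning without HSU 2b and without HSU_Sor 3. The cause was not tested. Members near the bottom of the scale, such as Plk1, Cdc20 and Foxm1, give no measurement of their change.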

Other observations

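The 5 genes whose values ran most nearly opposite to the members' mean deviation, among 9275 ranked, were Hist2h2be (r = −0.98 over 7 arrays), Klf2, Ift43, Wnk1 and Ero1a (r = −0.96). Klf2, a shear-responsive transcription factor of endothelial cells, read 13.12, 13.12 and 13.36 in HSU and 12.91, 12.98, 13.26 and 13.12 in HSU_Sor, so that HSU 3b and HSU_Sor 3 were its 2 highest arrays. Hist2h2be, a histone H2B gene, read 9.08, 9.08 and 9.21 in HSU and 8.93, 8.90, 9.25 and 9.08 in HSU_Sor. The ranges of these 5 genes, 0.35 to 0.50 on the log2 scale, were small beside those of Cdk1 or Mki67. They were picked from many genes for this order, which is given as a description.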
